A study of Homo sapiens with 8 samples.

Results

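The response of triple-negative breast cancer cells to Acetalax was examined in all 8 RNA-seq libraries of the study, as 4 pairs of 1 treated and 1 control library. A library belonged to the treated group if its labels gave it as Acetalax-treated and to the control group if they gave it as control, and each treated library was paired with the control of the same cells. The 4 kinds of cells, called backgrounds here, were parental BT549, parental MDA-MB468, BT549 CE and MDA-MB468 CE. BT549 and MDA-MB468 are established human triple-negative breast cancer lines, and CE stands for chronic exposure. CE cells were clones that grew in 40 μmol/L Acetalax and were resistant to it, and they were kept without the drug for 2 weeks before use. Treated cells received 1 μmol/L Acetalax for 6 hours in the same RPMI medium with serum as the controls, and whether the controls received the solvent was not given in the sources used here. Each background and treatment had 1 library, so that the 4 pairs served as the replicates of the treatment and came from only 2 cell lines.

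Acetalax, or oxyphenisatin acetate, is a diphenolic laxative. The study traced its toxicity to TRPM4, a channel of the cell membrane that opens when calcium rises inside the cell and lets sodium and other monovalent cations pass. Within hours of a stress at the membrane, epithelial cancer cells can transcribe immediate early genes for transcription factors, then cytokines and growth factors that act on neighbouring cells. The NF-κB, AP-1 and YAP-TAZ systems control many of these genes. The question addressed here was which transcripts changed in the same way in all 4 backgrounds.

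The libraries held from 42261122 to 54241728 counts on genes (median 48064282). Levels below are in CPM, counts per 1e6 counts of a library whose size was scaled by TMM. A count of 0 allows a level of up to 0.0553 to 0.071 CPM before TMM scaling (3 counts, counting error only). The mitochondrial share of counts was lower in the treated library of each pair. It went from 7.32% to 7.29% in parental BT549, from 10.04% to 7.89% in parental MDA-MB468, from 5.08% to 4.00% in BT549 CE and from 9.98% to 8.87% in MDA-MB468 CE, and its part in the results below was not tested. The libraries carried the markers of their labelled lines: VIM had 895 to 1492 CPM in BT549 and 1.61 to 8.73 CPM in MDA-MB468, whereas EPCAM had 373 to 428 CPM in MDA-MB468 and at most 0.189 CPM in BT549. The estrogen and progesterone receptor genes ESR1 and PGR reached at most 4.92 and 0.65 CPM in any library. The third receptor gene behind the triple-negative label, ERBB2, was higher, at 43.4 to 92.2 CPM over the libraries. Of 12 markers of other cell types, the smooth muscle gene ACTA2 (up to 128 CPM, in BT549) and the monocyte gene CD14 (up to 44.3 CPM, in MDA-MB468) were detected above 10 CPM, and the summed level of the markers ranged from 16.6 to 130.1 CPM in the controls and from 14.2 to 119 CPM in the treated libraries.

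Genes of NF-κB subunits and inhibitors had positive median ratios of Acetalax to control in all 4 backgrounds, whereas interferon-stimulated genes had negative ones. The medians of chemokine and cytokine genes were positive as well. In parental BT549, however, that median (0.66) was equal to the ratio of IL18, which had 0 CPM in the control and 0.0242 CPM after Acetalax. IL8, the gene of a chemokine that attracts neutrophils, had the largest rise among genes that averaged 1 CPM or more, with a log2 fold change of 4.24 (standard error 0.68), and IFIT1, an interferon-induced gene, fell by 1.85 on the log2 scale (standard error 0.21). The common Acetalax term was tested in 19693 genes with edgeR's quasi-likelihood test, with 1 intercept per background. At an adjusted p under 0.05, 984 genes were called (5%), of which 536 were higher (2.72%) and 448 lower (2.27%). The median log2 fold change was 1.01 among the genes called higher and -0.95 among those called lower. All 4 pairs had the sign of the term in 495 of the 536 genes and in 399 of the 448. In every background, 11563 genes reached 1 CPM or more in the control or treated library. Of these, 711 were called (6.15%), 396 higher (3.42%) and 315 lower (2.72%), and all 711 had 4 pairs of the same sign. With or without a call, 2265 (19.6%) were higher and 2660 (23%) lower in all 4 pairs. In these RNA samples a change in the RNA per cell and a loss of cells of 1 kind cannot be told apart.

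The calls lay close to the threshold. Their adjusted p ran from 0.0222 to 0.0499, and 5523 genes (28%) had an unadjusted p under 0.05. Without the parental MDA-MB468 pair, 0 genes were called (smallest adjusted p 0.17, 3491 genes with an unadjusted p under 0.05), so every call named here is lost without that pair. Without the parental BT549 pair, 311 genes were called, without the BT549 CE pair 263 and without the MDA-MB468 CE pair 554. In each of these fits, all called genes that could be tested kept their direction. The genes were chosen on all 4 pairs, so this agreement was largely given in advance. The edgeR test also called 0 genes when testing was limited to genes that averaged 5 CPM or more (smallest adjusted p 0.0503, 3733 genes with an unadjusted p under 0.05). A limma fit that treated the cell line as a source of shared variation called 0 genes as well (3455 with an unadjusted p under 0.05), whereas DESeq2 called 2913 genes (14.8%), 1301 higher (6.61%) and 1612 lower (8.19%). With 4 pairs, a single value cannot reach a two-sided exact p below 0.125 by changing the signs of the pairs.

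Of 19 chemokine and cytokine genes tested, 9 were called higher and 0 lower, with a median log2 fold change of 1.51 against -0.04 over all genes tested. Only 7 of the 19 reached 1 CPM or more in every background. The median was the term of IL18, which had at most 0.0242 CPM in BT549. For this list and those below, the shares over all genes tested were 2.72% called higher and 2.27% called lower. An unadjusted p under 0.05 was found in 28% of all genes tested. IL8 (ENSG00000169429, hg19 chr4:74606223-74609433) rose from 85.2 to 387 CPM in parental BT549, from 1.76 to 63.8 in parental MDA-MB468, from 9 to 700.4 in BT549 CE and from 2.66 to 27.9 in MDA-MB468 CE. Every treated library was above its own control, while the parental BT549 control was still above the treated MDA-MB468 libraries. LIF, a cytokine of the IL6 family, rose from 225 to 403 CPM in parental BT549, from 34.7 to 438 in parental MDA-MB468, from 46.5 to 718 in BT549 CE and from 48.6 to 289 in MDA-MB468 CE, and its treated and control libraries did not overlap. The log2 fold change of LIF was 2.79 (standard error 0.50, adjusted p = 0.0377). IL6 itself, an inflammatory cytokine, rose from 11.1 to 28.7 CPM in parental BT549, from 0.135 to 2.76 in parental MDA-MB468, from 6.25 to 77.7 in BT549 CE and from 0.433 to 2.59 in MDA-MB468 CE. IL6 had a log2 fold change of 2.80 (standard error 0.44, adjusted p = 0.0327). Its levels in MDA-MB468 stayed below those of untreated BT549 in each library. CLCF1, another IL6-type cytokine, rose from between 2.78 and 20.8 CPM in the controls to between 29.5 and 118 CPM (log2 fold change 2.32, standard error 0.35, adjusted p = 0.0326). Its treated and control libraries did not overlap.

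**Figure D1:**
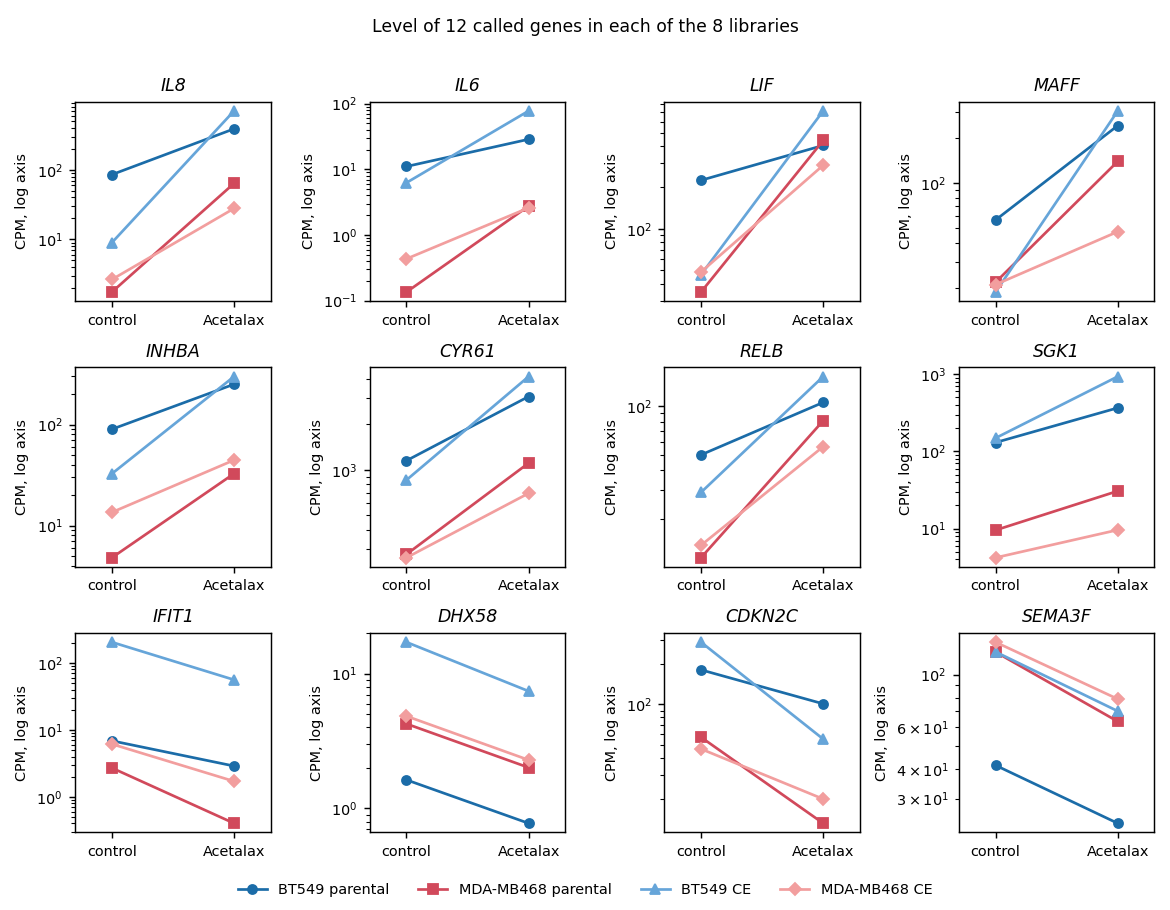
Level of 12 called genes in the control and the Acetalax library of each background, in CPM on a log axis, with 1 line per background and axes scaled gene by gene. Each line joins 1 control and 1 treated library; IL8 climbs and IFIT1 drops in all 4 backgrounds, from starting levels that differ between lines.

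Other chemokine genes started from levels that differed between the lines. CXCL1, which like IL8 draws neutrophils, rose from 189.7 to 314 CPM in parental BT549, from 0.676 to 12.5 in parental MDA-MB468, from 113 to 616 in BT549 CE and from 0.144 to 2.45 in MDA-MB468 CE. For CXCL1, the log2 fold change was 2.47 (standard error 0.52, adjusted p = 0.0437). The steepest relative rises were thus in MDA-MB468, where the gene was nearly silent. CCL20, a chemokine for dendritic cells and lymphocytes, was at most 0.405 CPM in the control libraries and reached 0.291 CPM in parental BT549, 3.94 in parental MDA-MB468, 1.89 in BT549 CE and 3.51 in MDA-MB468 CE (log2 fold change 3.24, standard error 0.46, adjusted p = 0.031). IL18, an inflammasome cytokine, had a log2 fold change of 1.51 (standard error 0.20, adjusted p = 0.0291) that came from MDA-MB468, with 13.8 to 36.9 CPM in parental and 24.6 to 75.4 CPM in CE cells, and at most 0.0242 CPM in BT549. CD274, which encodes the immune checkpoint ligand PD-L1, rose from 32.8 to 56.2 CPM in parental BT549, from 0.29 to 2.63 in parental MDA-MB468, from 3.75 to 31.9 in BT549 CE and from 0.68 to 3.53 in MDA-MB468 CE. CD274 had a log2 fold change of 2.25 (standard error 0.40, adjusted p = 0.0377).

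The proximal promoters of these genes are shown because NF-κB is a known regulator of several of them. RefSeq promoter sequences on GRCh38.p14, running from 250 bases before to 50 bases after the start, were matched for 9 of the 12 genes with the largest rises (GEM, LIF and RPSAP52 had no entry). The NF-κB consensus, a motif of 10 bases read on both strands, with overlapping matches counted as 1 promoter, was in 2958 of 27305 promoters (10.8%). It was in 4 of these 9 (44.4%), CCL20, IL6, TNFAIP3 and CXCL1, but also in 2 of 9 promoters of the 12 largest falls (22.2%), PLEKHS1 and TNS1. Of the called genes with at least 1 CPM in every background that were over 2-fold higher in all 4 pairs, 13 had a promoter and 1 held the consensus (7.69%). The AP-1 motif TGANTCA, read on both strands, was in 7.76% of all promoters in 2 of the 9 (22.2%), IL8 and F3, and in 0 of 9 for the largest falls. Among the genes over 2-fold in all 4 pairs it was in 2 of 13 higher (15.4%) and in 1 of 5 lower (20%). Below, capitals mark the match. CXCL1 also matches on the other strand, shifted by 1 base. The windows lie on the plus strand at chr7:22727113-22727150 for IL6, chr4:73869300-73869337 for CXCL1, chr2:227813749-227813786 for CCL20 and chr4:73740418-73740452 for the AP-1 match of IL8.
IL6, NF-κB: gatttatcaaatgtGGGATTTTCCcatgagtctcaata
CXCL1, NF-κB: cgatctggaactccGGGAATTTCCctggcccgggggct
CCL20, NF-κB: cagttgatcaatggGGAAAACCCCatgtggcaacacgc
IL8, AP-1: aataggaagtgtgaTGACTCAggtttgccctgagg
A match is a run of letters and does not show that a factor was bound.

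Of 17 genes for NF-κB subunits, their inhibitors and regulators, 6 were called higher and 1 lower (median 0.76). RELB, a subunit of the non-canonical pathway, rose from 49.8 to 105 CPM in parental BT549, from 11.5 to 81.1 in parental MDA-MB468, from 29.2 to 152 in BT549 CE and from 13.7 to 56.01 in MDA-MB468 CE (log2 fold change 2.08, standard error 0.26, adjusted p = 0.0286), and its treated and control libraries did not overlap. NFKB2, its partner, rose from 130.3 to 217 CPM in parental BT549, from 35.9 to 121 in parental MDA-MB468, from 82.6 to 294 in BT549 CE and from 36.7 to 105 in MDA-MB468 CE. For NFKB2, the log2 fold change was 1.46 (standard error 0.18, adjusted p = 0.0286). NFKBIA, which holds NF-κB in the cytoplasm, rose by a smaller and more even amount, from 51.04 to 74.7 CPM in parental BT549, from 29.1 to 43.6 in parental MDA-MB468, from 40.4 to 71.5 in BT549 CE and from 27.6 to 48.4 in MDA-MB468 CE. NFKBIA had a log2 fold change of 0.69 (standard error 0.11, adjusted p = 0.0326). TNFAIP3, a ubiquitin-editing enzyme that switches the pathway off, rose from 25.9 to 49.9 CPM in parental BT549, from 4.46 to 69.1 in parental MDA-MB468, from 11.1 to 43.6 in BT549 CE and from 4.95 to 44.2 in MDA-MB468 CE. For TNFAIP3, the log2 fold change was 2.49 (standard error 0.46, adjusted p = 0.0385). Its rise was larger in MDA-MB468 than in BT549 (line difference -2.10 on the log2 scale for BT549 minus MDA-MB468, standard error 0.39, adjusted p = 0.0469). BCL3, an atypical member of the inhibitor family, fell from 46.2 to 26.8 CPM in parental BT549, from 72.7 to 49.1 in parental MDA-MB468, from 83.8 to 67.8 in BT549 CE and from 108 to 57.3 in MDA-MB468 CE. BCL3 had a log2 fold change of -0.64 (standard error 0.12, adjusted p = 0.0398). BIRC3, an inhibitor of apoptosis and a known NF-κB target, rose from 11.2 to 15.5 CPM in the controls to 20.3, 94.6, 100.1 and 54.8 CPM in parental BT549, parental MDA-MB468, BT549 CE and MDA-MB468 CE (log2 fold change 2.05, standard error 0.38, adjusted p = 0.0384).
Among the 5 genes of this list called higher that had a RefSeq promoter, the NF-κB consensus was in 3, NFKBIA, TNFAIP3 and BIRC3 (60%, beside 10.8% of all promoters). The list was made of NF-κB pathway genes, and its uncalled members were not counted. This share therefore cannot be tied to the response to Acetalax. RELB had no entry. The AP-1 motif was in 0 of the 5. The windows shown are those of the pathway's own inhibitors, with 1 match each in capitals. The window of NFKBIA is on the minus strand at chr14:35404807-35404844 and that of TNFAIP3 on the plus strand at chr6:137867178-137867215. A second match of TNFAIP3 begins 55 bases before the start and stands in lower case within its window.
NFKBIA, NF-κB: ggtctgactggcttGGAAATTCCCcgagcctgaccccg
TNFAIP3, NF-κB: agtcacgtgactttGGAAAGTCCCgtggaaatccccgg

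**Figure D2:**
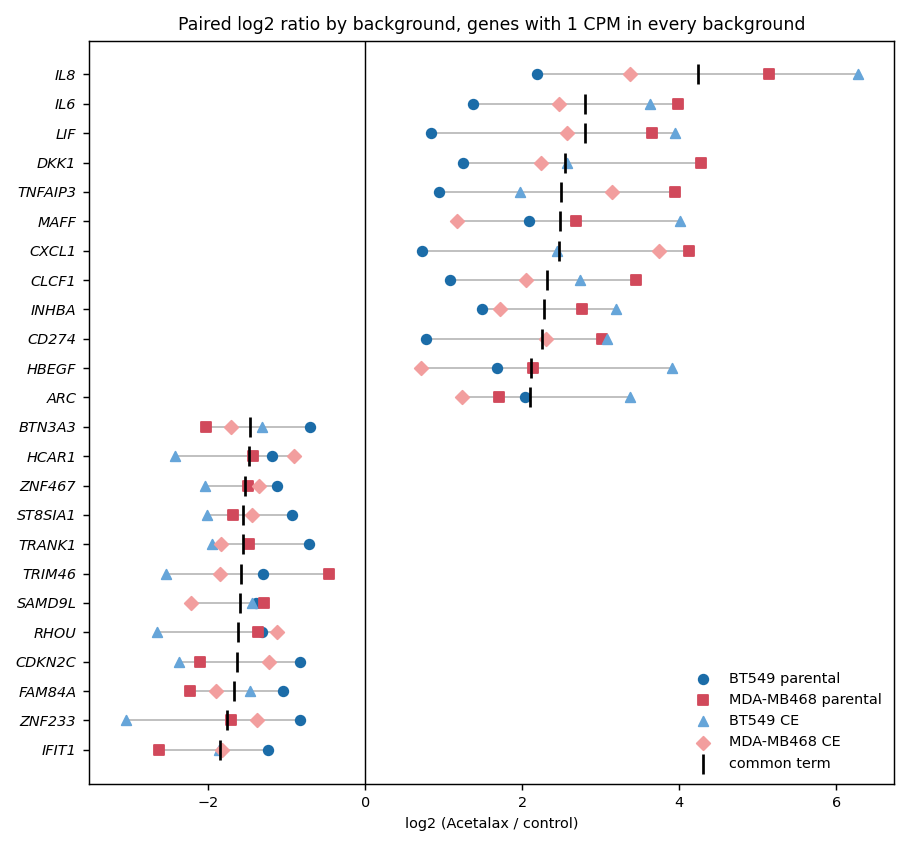
Paired log2 ratio of Acetalax to control in each background for the 12 largest rises and 12 largest falls among called genes with at least 1 CPM in every background, with the common term as a black bar. All ratios have the sign of the term, and those of parental BT549 are most often nearest to 0 among the rises.

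Among EGFR ligands and the proteases that release them, 2 of 12 were called higher and 0 lower (median 0.78). HBEGF, a heparin-binding ligand of EGFR, rose from 35.2 to 113 CPM in parental BT549, from 4.46 to 19.8 in parental MDA-MB468, from 15.6 to 236 in BT549 CE and from 5.92 to 9.72 in MDA-MB468 CE. For HBEGF, the log2 fold change was 2.11 (standard error 0.46, adjusted p = 0.0459). AREG, another ligand, was at 0 CPM in both parental BT549 libraries and at most 0.0457 CPM in BT549 CE, so that its call rested on MDA-MB468, where it went from 0.0965 to 4.3 CPM in parental and from 0.371 to 1.81 CPM in CE cells (log2 fold change 3.48, standard error 0.70, adjusted p = 0.0449). TGFA had a log2 fold change of 0.99 (standard error 0.23, adjusted p = 0.0578) and was not called. Of 13 receptor tyrosine kinase genes, 2 were called higher and 1 lower (median 0.20). EGFR rose from 313 to 399 CPM in parental BT549, from 3518 to 10232 in parental MDA-MB468, from 259 to 508 in BT549 CE and from 2989 to 6634 in MDA-MB468 CE (log2 fold change 1.01, standard error 0.17, adjusted p = 0.0367), and MET, the receptor of hepatocyte growth factor, rose by less (log2 fold change 0.74, standard error 0.14, adjusted p = 0.0402). ERBB2, the HER2 gene, fell from 58.9 to 43.4 CPM in parental BT549, from 82.6 to 43.5 in parental MDA-MB468, from 92.2 to 61.3 in BT549 CE and from 86.6 to 48.6 in MDA-MB468 CE. ERBB2 had a log2 fold change of -0.70 (standard error 0.11, adjusted p = 0.0361).

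Of 18 feedback genes of the MAPK pathway, 1 was called higher and 0 lower, although their median was 0.85 and 12 had an unadjusted p under 0.05. SPRY2, an inhibitor of receptor signaling, rose from 77.00 to 103 CPM in parental BT549, from 18.4 to 51.7 in parental MDA-MB468, from 43.01 to 175 in BT549 CE and from 18.3 to 42.9 in MDA-MB468 CE. For SPRY2, the log2 fold change was 1.29 (standard error 0.23, adjusted p = 0.0379). The phosphatase gene DUSP5 had a log2 fold change of 0.96 (standard error 0.26, adjusted p = 0.0664) and PHLDA1 of 1.09 (standard error 0.28, adjusted p = 0.0624), with ratios in parental BT549 of -0.02 and -0.07. None of 13 AP-1 subunit genes was called by edgeR (0 of 13, with 6 at an unadjusted p under 0.05, median 0.40). FOSL1 had the largest term among them, 3.06 (standard error 0.77, adjusted p = 0.0595), and its levels went from 279 to 390.4 CPM in parental BT549, from 6.23 to 352 in parental MDA-MB468, from 70.99 to 525 in BT549 CE and from 17.6 to 163 in MDA-MB468 CE. Treated parental MDA-MB468 was thus above untreated parental BT549, and treated MDA-MB468 CE below it. JUNB had a log2 fold change of 0.40 (standard error 0.10, adjusted p = 0.0598).

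Of 10 genes for small MAF, BACH and NRF factors, 4 were called higher and 0 lower (median 0.48). Among them were all 3 small MAF genes, whose proteins pair with NRF and BACH factors on antioxidant response elements. MAFF rose from 56.9 to 243 CPM in parental BT549, from 21.8 to 140.0 in parental MDA-MB468, from 18.8 to 304 in BT549 CE and from 21.1 to 47.5 in MDA-MB468 CE. MAFF had a log2 fold change of 2.48 (standard error 0.41, adjusted p = 0.0361). MAFG rose from between 36.1 and 55.8 CPM to between 59.6 and 201 CPM (log2 fold change 1.62, standard error 0.25, adjusted p = 0.0326), and MAFK from between 49.03 and 57.4 to between 95.2 and 189 CPM (log2 fold change 1.25, standard error 0.18, adjusted p = 0.031). Treated and control libraries did not overlap for either. BACH2, a repressor that binds with small MAF proteins, rose from 1.89 to 5.07 CPM in parental BT549, from 0.483 to 3.68 in parental MDA-MB468, from 0.994 to 5.64 in BT549 CE and from 0.165 to 0.944 in MDA-MB468 CE. For BACH2, the log2 fold change was 2.29 (standard error 0.29, adjusted p = 0.0286). Of 18 targets of NRF2, 0 were called by edgeR (median 0.13, with a sign that turned under 1 of 18 alternatives). An unadjusted p under 0.05 was found in 5 of them, near the 28% of all genes tested. In all 4 pairs, 7 of the 18 were higher and 4 lower, and the difference between these targets and the factors was not tested. Among the Krüppel-like factors, 3 of 13 were called higher and 0 lower (median 0.52), KLF10, which TGF-β induces (log2 fold change 1.38, standard error 0.20, adjusted p = 0.0313), KLF6 (log2 fold change 0.87, standard error 0.16, adjusted p = 0.0385) and KLF7 (log2 fold change 0.80, standard error 0.18, adjusted p = 0.0469). Of 12 EGR, NR4A and serum response genes, 2 were called higher and 0 lower (median 0.64), SRF, the serum response factor (log2 fold change 1.05, standard error 0.17, adjusted p = 0.0361), and the orphan receptor gene NR4A3 (log2 fold change 1.66, standard error 0.37, adjusted p = 0.0463). NR4A3 was higher in MDA-MB468 CE by a ratio of only 0.14. ARC, an immediate early gene best known from neurons, rose from 0.496 to 2.16 CPM in parental BT549, from 0.772 to 2.61 in parental MDA-MB468, from 0.21 to 2.58 in BT549 CE and from 0.763 to 1.85 in MDA-MB468 CE. ARC had a log2 fold change of 2.10 (standard error 0.36, adjusted p = 0.0376).

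Genes of the TGF-β and activin pathways had 6 of 21 members called higher and 1 lower (median 0.79). INHBA, which encodes the activin A subunit, rose from 89.9 to 251 CPM in parental BT549, from 4.81 to 32.7 in parental MDA-MB468, from 32.6 to 299 in BT549 CE and from 13.5 to 44.5 in MDA-MB468 CE. For INHBA, the log2 fold change was 2.28 (standard error 0.29, adjusted p = 0.0286). TGFB2, a TGF-β ligand, rose from 18.4 to 35.4 CPM in parental BT549, from 91.8 to 370.3 in parental MDA-MB468, from 12.2 to 64.97 in BT549 CE and from 109.5 to 242 in MDA-MB468 CE (log2 fold change 1.62, standard error 0.24, adjusted p = 0.0318), and THBS1, a matrix protein that activates latent TGF-β, rose from 1085 to 1859.9 CPM in parental BT549, from 170.2 to 863 in parental MDA-MB468, from 847 to 2253 in BT549 CE and from 255 to 679 in MDA-MB468 CE. THBS1 had a log2 fold change of 1.48 (standard error 0.22, adjusted p = 0.0318). Another ligand went the other way: TGFB3 fell from between 2.78 and 3.76 CPM to between 1.25 and 2.5 CPM, without overlap (log2 fold change -1.09, standard error 0.21, adjusted p = 0.041). PMEPA1, a feedback inhibitor of the pathway, was more than 2-fold higher in each pair (log2 fold change 1.51, standard error 0.23, adjusted p = 0.0326).

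Of 20 genes on a list of YAP-TAZ targets, 8 were called higher and 0 lower (median 0.61). The list medians were 0.01 in parental BT549, 1.21 in parental MDA-MB468, 0.45 in BT549 CE and 0.48 in MDA-MB468 CE. The list also held genes of the factors themselves, YAP1, WWTR1, TEAD1 and TEAD4. CYR61 (ENSG00000142871, hg19 chr1:86046444-86049645), a matricellular protein gene, rose from 1150.4 to 3061 CPM in parental BT549, from 275 to 1109 in parental MDA-MB468, from 856 to 4154 in BT549 CE and from 262 to 699 in MDA-MB468 CE. For CYR61, the log2 fold change was 1.78 (standard error 0.16, adjusted p = 0.0222). LATS2, a kinase that restrains YAP, rose from 58.9 to 142 CPM in parental BT549, from 24.6 to 64.6 in parental MDA-MB468, from 67.1 to 219.6 in BT549 CE and from 25.2 to 34.8 in MDA-MB468 CE. LATS2 had a log2 fold change of 1.22 (standard error 0.19, adjusted p = 0.0327). CTGF rose in the same direction in every pair (log2 fold change 1.46, standard error 0.30, adjusted p = 0.0424), by a paired log2 ratio of only 0.50 in MDA-MB468 CE. F3, the gene of tissue factor, which starts blood clotting, went from 45.2 to 813 CPM in parental and from 118 to 556 CPM in CE MDA-MB468, and stayed under 1 CPM in BT549 (log2 fold change 2.54, standard error 0.56, adjusted p = 0.0465). Outside this list, DKK1, a secreted WNT inhibitor, rose from 102 to 242 CPM in parental BT549, from 10.2 to 198 in parental MDA-MB468, from 44.98 to 267 in BT549 CE and from 46.6 to 219 in MDA-MB468 CE, without overlap of treated and control libraries (log2 fold change 2.55, standard error 0.43, adjusted p = 0.0367). Of 25 collagen and matrix genes, 2 were called higher and 0 lower (median 0.30), COL7A1 (log2 fold change 0.78, standard error 0.17, adjusted p = 0.0453) and SERPINB2, which was detected above 1 CPM only in the treated BT549 CE library (5.27 CPM). The medians of the matrix list were -0.03 in parental BT549, 0.50 in parental MDA-MB468, 0.12 in BT549 CE and 0.43 in MDA-MB468 CE. In every background, 14 of the 25 reached 1 CPM or more.

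**Figure D3:**
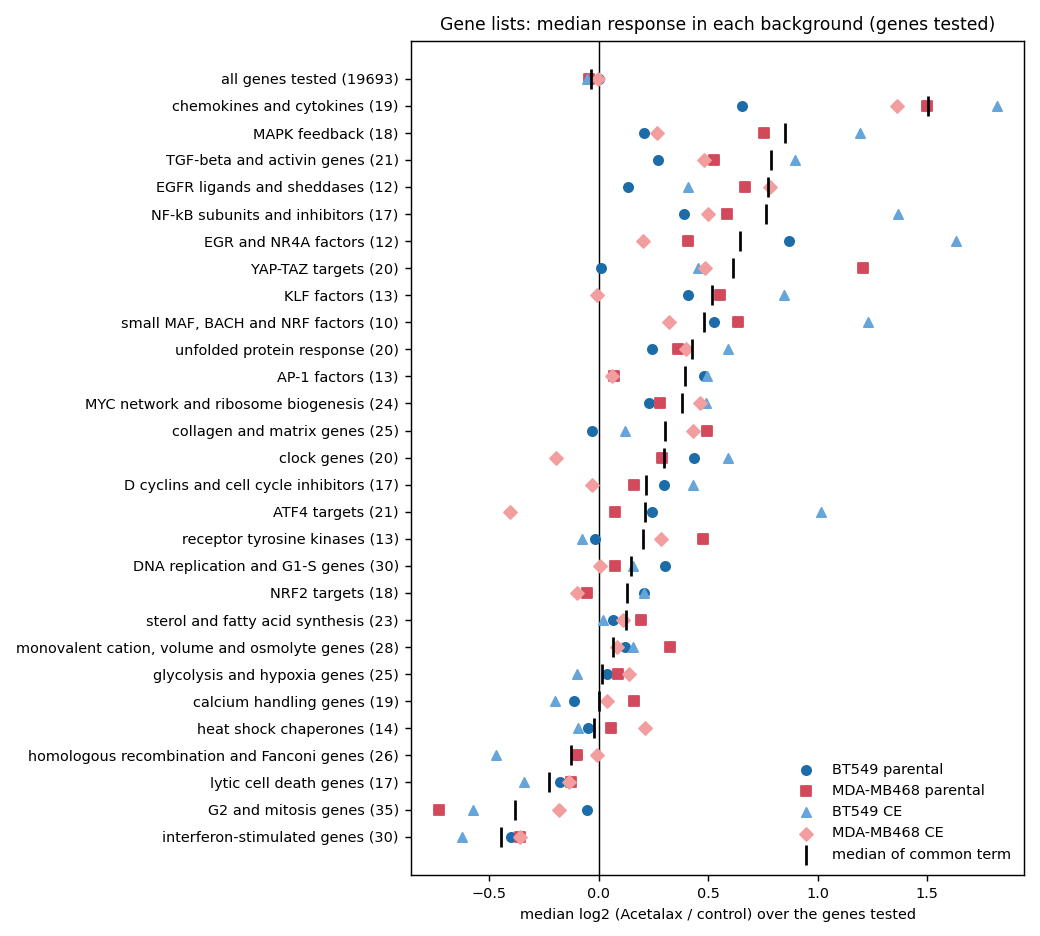
Median log2 ratio of Acetalax to control over the tested genes of each pathway list, as 1 point per background and a bar for the median of the common term, with the number of genes tested in parentheses. Chemokines and cytokines are farthest to the right (median 1.51) and interferon-stimulated genes farthest to the left (-0.45), while the median of all genes tested lies at -0.04. Of the 19 chemokine and cytokine genes, 7 reached 1 CPM or more in every background.

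Stress pathways differed in their counts of calls. Of 20 genes of the unfolded protein response, which adjusts the folding capacity of the endoplasmic reticulum, 6 were called higher and 0 lower (median 0.42). HSPA5, the main chaperone of that compartment, rose from 984 to 1421 CPM in parental BT549, from 455 to 1038 in parental MDA-MB468, from 1513 to 4600.2 in BT549 CE and from 463 to 939 in MDA-MB468 CE. For HSPA5, the log2 fold change was 1.09 (standard error 0.16, adjusted p = 0.0313). DNAJC3 (log2 fold change 0.88, standard error 0.15, adjusted p = 0.0373) and MANF (log2 fold change 0.82, standard error 0.14, adjusted p = 0.0367), a co-chaperone and a secreted stress protein, rose in each pair. ATF4 targets had 1 of 21 called higher and 2 lower (median 0.21, with a sign that turned under 2 of the 18 alternatives tried). PPP1R15A, which restarts translation after stress, rose from 139.7 to 253 CPM in parental BT549, from 43.2 to 348 in parental MDA-MB468, from 73.6 to 266 in BT549 CE and from 45.5 to 80.2 in MDA-MB468 CE. PPP1R15A had a log2 fold change of 1.62 (standard error 0.35, adjusted p = 0.0451). DDIT4, an inhibitor of mTOR, fell from 367 to 279 CPM in parental BT549, from 161 to 43.7 in parental MDA-MB468, from 582 to 276 in BT549 CE and from 233 to 76.6 in MDA-MB468 CE (log2 fold change -1.24, standard error 0.22, adjusted p = 0.0379), and the lipoprotein receptor gene VLDLR also fell (log2 fold change -0.65, standard error 0.13, adjusted p = 0.0424). None of 14 heat shock chaperone genes was called (0 of 14, with 1 at an unadjusted p under 0.05, median -0.02). None of 25 glycolysis and hypoxia genes was called either (0 of 25, with 3 at an unadjusted p under 0.05, median 0.01), and ADM had a log2 fold change of 1.13 (standard error 0.43, adjusted p = 0.14).

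Clock genes had 3 of 20 called higher and 2 lower (median 0.30). CRY1, a repressor of the clock, rose from 24.1 to 68.1 CPM in parental BT549, from 19.4 to 50.7 in parental MDA-MB468, from 15.4 to 57.1 in BT549 CE and from 18.8 to 27.97 in MDA-MB468 CE. For CRY1, the log2 fold change was 1.34 (standard error 0.20, adjusted p = 0.0326). NPAS2, an activator, had its rise in MDA-MB468, from 7.8 to 47.9 CPM in parental and from 10.5 to 40.3 CPM in CE cells, and was under 1 CPM in BT549 (log2 fold change 1.85, standard error 0.33, adjusted p = 0.0377).

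The study places the action of Acetalax at a cation channel, so genes of ion transport, cell volume and lytic death were examined. TRPM4 was not called, with a log2 fold change of -0.20 (standard error 0.13, adjusted p = 0.362). It had 20.1, 46.00, 32.8 and 54.7 CPM in the parental BT549, parental MDA-MB468, BT549 CE and MDA-MB468 CE controls and 15.2, 46.7, 23.7 and 56.3 CPM after Acetalax. These are RNA levels: by Western blot, the paper reports TRPM4 protein as almost undetectable in CE cells of both lines, with unchanged transcripts. The paired log2 ratios were -0.40 and -0.47 in BT549 and 0.02 and 0.04 in MDA-MB468. Of 28 genes for monovalent cation transport, volume regulation and osmolytes, 5 were called higher and 1 lower (median 0.06). SGK1, a kinase that regulates sodium channels and transporters, rose from 130.3 to 366 CPM in parental BT549, from 9.56 to 30.7 in parental MDA-MB468, from 149 to 931 in BT549 CE and from 4.2 to 9.62 in MDA-MB468 CE. SGK1 had a log2 fold change of 1.77 (standard error 0.22, adjusted p = 0.0286). LRRC8A, the obligatory subunit of the volume-regulated anion channel, rose from 126 to 196 CPM in parental BT549, from 76.3 to 174 in parental MDA-MB468, from 78.2 to 197 in BT549 CE and from 77.7 to 117 in MDA-MB468 CE (log2 fold change 0.94, standard error 0.15, adjusted p = 0.0327), while LRRC8D, an alternative subunit of the same channel, fell from 48.9 to 23.3 CPM in parental BT549, from 107 to 56.1 in parental MDA-MB468, from 31.2 to 7.83 in BT549 CE and from 105 to 74.5 in MDA-MB468 CE. For LRRC8D, the log2 fold change was -1.11 (standard error 0.22, adjusted p = 0.042). SLC6A6, the taurine transporter, rose (log2 fold change 1.00, standard error 0.16, adjusted p = 0.0327). The sodium pump gene ATP1B1 (log2 fold change 0.60, standard error 0.12, adjusted p = 0.0427) and the potassium-chloride cotransporter gene SLC12A4 (log2 fold change 0.61, standard error 0.11, adjusted p = 0.0377) rose by less.

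Of 19 calcium handling genes, 2 were called higher and 1 lower (median 0.00). ATP2A2, the calcium pump of the endoplasmic reticulum, rose from 424 to 542 CPM in parental BT549, from 317 to 513 in parental MDA-MB468, from 473 to 834 in BT549 CE and from 326 to 441 in MDA-MB468 CE (log2 fold change 0.58, standard error 0.10, adjusted p = 0.0376), and NFATC2, a calcium-dependent transcription factor, rose (log2 fold change 1.3, standard error 0.28, adjusted p = 0.0445). ORAI3, a channel for store-operated calcium entry, fell from 4.02 to 2.93 CPM in parental BT549, from 3.44 to 1.47 in parental MDA-MB468, from 8.14 to 3.63 in BT549 CE and from 3.69 to 1.65 in MDA-MB468 CE. ORAI3 had a log2 fold change of -1.0 (standard error 0.20, adjusted p = 0.0424). Of 17 genes of lytic cell death, 1 was called higher and 1 lower (median -0.23). ACSL4, which loads membranes with oxidizable fatty acids and favours ferroptosis, rose (log2 fold change 0.63, standard error 0.14, adjusted p = 0.0452), and UCP2, a mitochondrial carrier gene, fell (log2 fold change -0.57, standard error 0.12, adjusted p = 0.0432). CASP1, the inflammatory caspase gene, had a log2 fold change of -0.68 (standard error 0.19, adjusted p = 0.0737).

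Cell cycle inhibitors moved in opposite directions. Of 17 genes for D cyclins and cell cycle inhibitors, 3 were called higher and 1 lower (median 0.21). GADD45A, a growth arrest gene, rose from 159 to 350.2 CPM in parental BT549, from 78.4 to 346 in parental MDA-MB468, from 87.1 to 570.1 in BT549 CE and from 156 to 402 in MDA-MB468 CE, without overlap of treated and control libraries (log2 fold change 1.84, standard error 0.25, adjusted p = 0.0295). CDKN1A, which encodes p21, rose from between 21.9 and 51.9 CPM to between 53.7 and 156 CPM (log2 fold change 1.54, standard error 0.31, adjusted p = 0.0424). CDKN2C, which encodes the CDK4 and CDK6 inhibitor p18, fell from 179.8 to 101 CPM in parental BT549, from 57.2 to 13.2 in parental MDA-MB468, from 288 to 55.4 in BT549 CE and from 46.8 to 19.98 in MDA-MB468 CE. For CDKN2C, the log2 fold change was -1.64 (standard error 0.25, adjusted p = 0.0327). Of 35 genes of G2 and mitosis, 0 were called higher and 2 lower (median -0.38), the kinesin gene KIF20A, which fell from 287 to 236 CPM in parental BT549, from 255 to 93.5 in parental MDA-MB468, from 308 to 145 in BT549 CE and from 208 to 137 in MDA-MB468 CE (log2 fold change -0.85, standard error 0.18, adjusted p = 0.0447), and HMMR, a spindle protein gene (log2 fold change -0.79, standard error 0.15, adjusted p = 0.04). The medians of this list were -0.05 in parental BT549, -0.73 in parental MDA-MB468, -0.58 in BT549 CE and -0.18 in MDA-MB468 CE, so that the list was lowest in the parental MDA-MB468 pair. DNA replication genes had 2 of 30 called higher and 0 lower (median 0.15), CDC6, which licenses origins (log2 fold change 0.49, standard error 0.09, adjusted p = 0.0401), and FEN1, the flap nuclease (log2 fold change 0.54, standard error 0.10, adjusted p = 0.0385). Homologous recombination and Fanconi genes had 0 of 26 called higher and 1 lower (median -0.13, with a sign that turned under 1 of 18 alternatives). MYC network and ribosome biogenesis genes had 6 of 24 called higher and 1 lower (median 0.38). MYC rose from 199 to 284 CPM in parental BT549, from 106 to 193 in parental MDA-MB468, from 163 to 359 in BT549 CE and from 96.9 to 151 in MDA-MB468 CE (log2 fold change 0.79, standard error 0.12, adjusted p = 0.0323), as did PPAN, a ribosome assembly gene (log2 fold change 1.00, standard error 0.17, adjusted p = 0.0361). MYCN fell in MDA-MB468, from 15.2 to 3.1 CPM in parental and from 2.97 to 0.321 CPM in CE cells, and was at 0 CPM in all 4 BT549 libraries.

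Interferon-stimulated genes held the largest count of falls among the lists. Of 30 tested, 0 were called higher and 7 lower, with a median of -0.45 and list medians between -0.36 and -0.62 in the 4 backgrounds. Their control levels differed widely, because BT549 CE cells expressed them strongly. IFIT1 (ENSG00000185745, hg19 chr10:91152303-91163745), whose protein binds viral RNA, fell from 6.87 to 2.89 CPM in parental BT549, from 2.7 to 0.402 in parental MDA-MB468, from 205 to 56.1 in BT549 CE and from 6.14 to 1.71 in MDA-MB468 CE. PARP9, which enhances interferon signaling, fell from 15.8 to 6.43 CPM in parental BT549, from 43.05 to 24.2 in parental MDA-MB468, from 182 to 92.2 in BT549 CE and from 57.2 to 28.5 in MDA-MB468 CE. PARP9 had a log2 fold change of -1.02 (standard error 0.11, adjusted p = 0.0222). IFIT3 fell from 10.4 to 5.53 CPM in parental BT549, from 9.09 to 2.96 in parental MDA-MB468, from 146 to 77.7 in BT549 CE and from 13.9 to 5.84 in MDA-MB468 CE. For IFIT3, the log2 fold change was -1.16 (standard error 0.15, adjusted p = 0.0287). MX1, an antiviral GTPase gene, fell from 3.87 to 1.89 CPM in parental BT549, from 29.9 to 20.4 in parental MDA-MB468, from 855 to 512 in BT549 CE and from 38.2 to 28.5 in MDA-MB468 CE. MX1 had a log2 fold change of -0.66 (standard error 0.12, adjusted p = 0.0376). The treated BT549 CE library remained above every control of the other backgrounds for these 4 genes. Also called lower, outside the list, were DHX58, TLR3 and SAMD9L. DHX58, a regulator of RIG-I signaling, fell by more than 1 on the log2 scale in each pair (log2 fold change -1.11, standard error 0.16, adjusted p = 0.0313), TLR3, the endosomal receptor of double-stranded RNA, fell from 0.874 to 0.194 CPM in parental BT549, from 3.94 to 1.27 in parental MDA-MB468, from 6.15 to 1.03 in BT549 CE and from 5.63 to 1.25 in MDA-MB468 CE (log2 fold change -2.13, standard error 0.23, adjusted p = 0.0222), and SAMD9L, an antiviral restriction gene, fell from 4.16 to 1.55 CPM in parental BT549, from 3.32 to 1.33 in parental MDA-MB468, from 110.0 to 40.3 in BT549 CE and from 3.81 to 0.783 in MDA-MB468 CE. For SAMD9L, the log2 fold change was -1.59 (standard error 0.19, adjusted p = 0.0267).
Of the 7 genes called lower, 5 had a RefSeq promoter (IFIT2 and OAS2 had no entry). The interferon-stimulated response element, by its consensus of 14 bases read on both strands, was in 3 of these 5, IFIT1, IFI44 and MX1 (60%, beside 0.231% of 27305 promoters). These 5 come from a list of interferon-stimulated genes, and the uncalled members of that list were not counted. The share therefore cannot be tied to the response to Acetalax. The promoters of IFIT1 and IFI44 are shown because their genes were called lower, with the match in capitals. The windows are on the plus strand of GRCh38.p14 at chr10:89392491-89392532 for IFIT1 and chr1:78649755-78649788 for IFI44.
IFIT1: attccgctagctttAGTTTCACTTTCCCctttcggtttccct
IFI44: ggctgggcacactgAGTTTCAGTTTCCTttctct

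Sterol and fatty acid genes had 3 of 23 called higher and 1 lower (median 0.13). HMGCS1, an early enzyme of cholesterol synthesis, rose from 95.3 to 169 CPM in parental BT549, from 120.5 to 298 in parental MDA-MB468, from 95.97 to 167 in BT549 CE and from 78.9 to 123 in MDA-MB468 CE (log2 fold change 0.89, standard error 0.12, adjusted p = 0.0295), and INSIG1, which retains the sterol sensor in the endoplasmic reticulum, rose (log2 fold change 0.93, standard error 0.21, adjusted p = 0.0465) with a ratio of only 0.05 in MDA-MB468 CE. SREBF1, a transcription factor of lipid synthesis, fell from 147 to 117 CPM in parental BT549, from 201 to 60.8 in parental MDA-MB468, from 332 to 188 in BT549 CE and from 115 to 46.1 in MDA-MB468 CE. SREBF1 had a log2 fold change of -1.05 (standard error 0.21, adjusted p = 0.0424).

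The largest falls by the rule for named genes were mostly in genes with low levels in at least 1 background. EDAR, a receptor of the TNF family, had the largest (log2 fold change -3.09, standard error 0.29, adjusted p = 0.0222), from 6.08 to 0.724 CPM in parental and from 4.18 to 0.482 CPM in CE MDA-MB468, and at most 0.0236 CPM in BT549. GRHL3, a factor of epithelial differentiation, fell in MDA-MB468 from 21.9 to 3.9 and from 27.04 to 7.59 CPM (log2 fold change -2.01, standard error 0.27, adjusted p = 0.0295). TXNIP, an inhibitor of thioredoxin and of glucose uptake, was listed on a patch sequence of hg19 and fell in BT549 from 21.1 to 4.58 CPM in parental and from 112 to 48.5 CPM in CE cells (log2 fold change -1.76, standard error 0.31, adjusted p = 0.0376). Among genes with at least 1 CPM in every background, FAM84A fell from 29.3 to 14.2 CPM in parental BT549, from 37.6 to 7.92 in parental MDA-MB468, from 37.8 to 13.6 in BT549 CE and from 28.9 to 7.67 in MDA-MB468 CE, without overlap of treated and control libraries (log2 fold change -1.67, standard error 0.21, adjusted p = 0.0286).

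Among called genes with at least 1 CPM in every background, 19 were more than 2-fold higher in all 4 pairs and 6 more than 2-fold lower. The 19 included IRS2, an adaptor of insulin signaling (log2 fold change 1.62, standard error 0.17, adjusted p = 0.0222), PIM1, a kinase that STAT3 induces (log2 fold change 1.74, standard error 0.30, adjusted p = 0.0376), HDAC9, a histone deacetylase gene (log2 fold change 1.57, standard error 0.17, adjusted p = 0.0222), and PLD6, a mitochondrial phospholipase gene (log2 fold change 1.47, standard error 0.16, adjusted p = 0.0222). MIR17HG, the host transcript of a microRNA cluster, rose by nearly the same amount in each pair, from 2.81 to 8.73 CPM in parental BT549, from 1.45 to 4.99 in parental MDA-MB468, from 2.27 to 8.81 in BT549 CE and from 1.26 to 3.82 in MDA-MB468 CE (log2 fold change 1.74, standard error 0.17, adjusted p = 0.0222). These counts measure the host transcript and not the mature microRNAs. The 6 lower genes were IFIT1, FAM84A, RHOU, SAMD9L, ZNF467 and DHX58.

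The most even responses, with the smallest spread among the 4 pairs, were of moderate size. SEMA3F, a secreted semaphorin that repels growing axons and vessels, fell from 41.5 to 23.6 CPM in parental BT549, from 125 to 63.5 in parental MDA-MB468, from 125 to 70.1 in BT549 CE and from 137 to 78.9 in MDA-MB468 CE (log2 fold change -0.85, standard error 0.09, adjusted p = 0.0222), with paired ratios between -0.97 and -0.80. SNX8, a sorting nexin of endosomes, rose from 115 to 169 CPM in parental BT549, from 99.8 to 148 in parental MDA-MB468, from 125 to 202 in BT549 CE and from 85.6 to 146 in MDA-MB468 CE. SNX8 had a log2 fold change of 0.65 (standard error 0.09, adjusted p = 0.0295). The zinc finger gene ZNF850 rose from 13.7 to 24.5 CPM in parental BT549, from 14.7 to 28.7 in parental MDA-MB468, from 6.67 to 11.2 in BT549 CE and from 11.9 to 19.4 in MDA-MB468 CE (log2 fold change 0.81, standard error 0.13, adjusted p = 0.0327), and FAM102B fell from 12.6 to 8.12 CPM in parental BT549, from 29.1 to 17.04 in parental MDA-MB468, from 9.78 to 6.05 in BT549 CE and from 22.8 to 13.8 in MDA-MB468 CE. For FAM102B, the log2 fold change was -0.71 (standard error 0.13, adjusted p = 0.0377). The treated and control libraries of SEMA3F overlapped across backgrounds because the parental BT549 control was low, whereas those of SNX8 did not overlap.

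The common term did not hold all of the response. Over the 11563 genes with at least 1 CPM in every background, it took 60.7% of the sum of squares of the paired log2 ratios, the difference between lines 24.4%, the difference between CE and parental cells 5.18% and their interaction 9.70%. Across these genes, the ratios of parental and CE cells had a Pearson correlation of 0.78 in BT549 and of 0.76 in MDA-MB468, compared with 0.38 between the parental cells of the 2 lines and 0.34 between their CE cells. These correlations describe genes, which are not independent replicates, and the pairs share no library. The spread of the ratios also differed, with a standard deviation of 0.43 in parental BT549, 0.57 in parental MDA-MB468, 0.72 in BT549 CE and 0.41 in MDA-MB468 CE. A ratio of at least 2-fold was reached by 184 genes up and 179 down in parental BT549, 512 and 278 in parental MDA-MB468, 594 and 1017 in BT549 CE and 219 and 133 in MDA-MB468 CE.

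**Figure D4:**
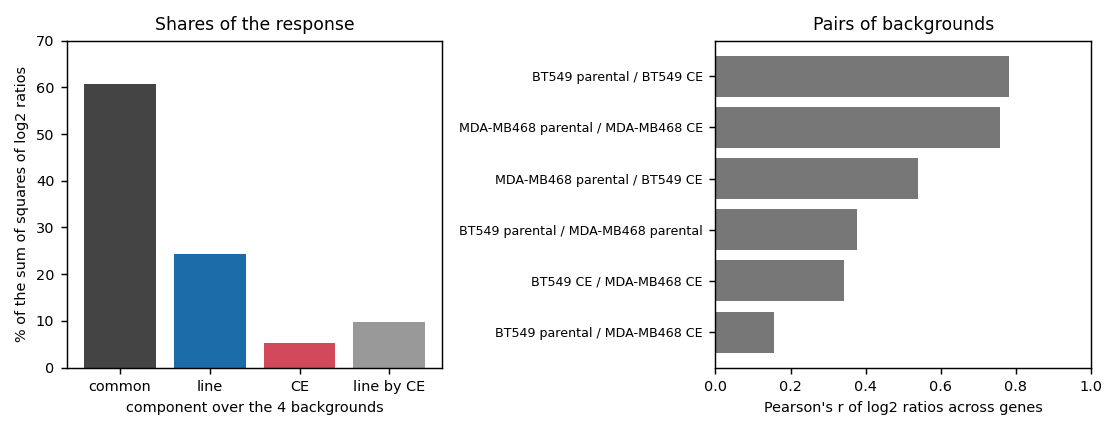
Left, share of the sum of squares of the paired log2 ratios taken by the common term, the line difference, the CE difference and their interaction, in percent, over 11563 genes; right, Pearson correlation of the ratios between backgrounds across the same genes. The common bar stands at 60.7%, and the 2 correlations within a line (0.78 and 0.76) are above the 4 between lines (0.16 to 0.54).

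The difference in response between the lines was tested in the same libraries with edgeR. Of 19693 genes, 351 were called (1.78%), 105 with the response of BT549 above that of MDA-MB468 (0.533%) and 246 with the reverse (1.25%). This count ranged from 59 with limma-voom (0.3%) to 941 with DESeq2 (4.78%) and was 6 with the CE difference in the same fit. Of the 290 line-dependent genes with at least 1 CPM in every background, 238 had mean responses of opposite sign in the 2 lines. Choosing genes by a line difference favours opposite signs, and their share over all 11563 such genes was not counted. For the common term, 2 of the 351 were also called, beside 5% of all genes tested. The fit of that term counts a line difference as spread, so the small overlap was largely given in advance. NR4A2, an orphan nuclear receptor, went from 3.87 to 22.2 CPM in parental BT549, from 17.2 to 6.96 in parental MDA-MB468, from 2.14 to 26.1 in BT549 CE and from 26.2 to 7.61 in MDA-MB468 CE, up in both BT549 pairs and down in both MDA-MB468 pairs (line difference 4.60, standard error 0.39, adjusted p = 0.0112). HMOX1, the inducible heme oxygenase, went from 223 to 841 CPM in parental BT549, from 12.9 to 7.56 in parental MDA-MB468, from 227 to 979 in BT549 CE and from 25.5 to 17.3 in MDA-MB468 CE (line difference 2.67, standard error 0.15, adjusted p = 0.00283). The adhesion gene CLMP went the other way, from 203 to 158 CPM in parental BT549, from 1.1 to 6.62 in parental MDA-MB468, from 299.6 to 259.5 in BT549 CE and from 3.9 to 21.3 in MDA-MB468 CE (line difference -2.79, standard error 0.17, adjusted p = 0.00283). AKAP12, a signaling scaffold gene, had a line difference of -5.32 (standard error 0.45, adjusted p = 0.0112) and ANK1 of -3.01 (standard error 0.24, adjusted p = 0.0112). JUND, an AP-1 subunit gene, had paired ratios of 1.51 and 1.75 in BT549 and of 0.57 and 0.06 in MDA-MB468 (line difference 1.31, standard error 0.20, adjusted p = 0.0379).

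**Figure D5:**
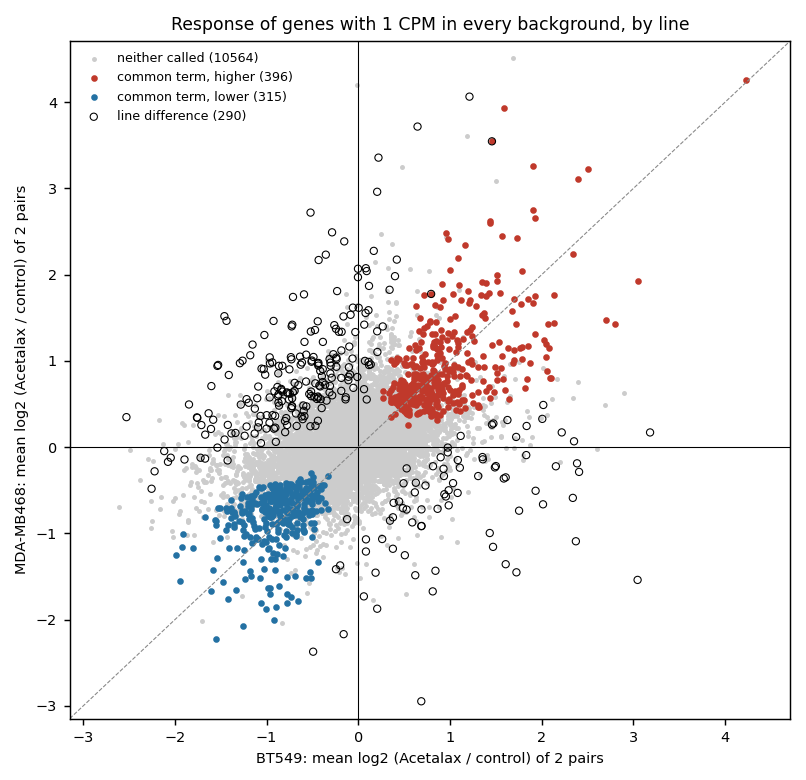
Mean log2 ratio of Acetalax to control in the 2 MDA-MB468 pairs against that in the 2 BT549 pairs, 1 point per gene with at least 1 CPM in every background; colours mark genes called for the common term (396 higher, 315 lower) and open circles the 290 called for the line difference. Called common genes lie where both axes have the same sign, and 238 of the circles lie where the signs differ. Both placements follow in part from how the genes were chosen.

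Keratins, the intermediate filament genes of epithelia, were examined after the values had been seen. Of 31 tested, 7 were called higher and 2 lower. For 6 of the 7, KRT75, KRT6A, KRT23, KRT6B, KRT17 and KRT34, the call rested on MDA-MB468, since they had at most 0.32 CPM in each BT549 library. KRT10 was the other, and rose from between 29.7 and 82.9 CPM to between 38.04 and 109 CPM (log2 fold change 0.49, standard error 0.10, adjusted p = 0.0437). KRT17 went from 351 to 1189 CPM in parental and from 246 to 1077 CPM in CE MDA-MB468, with at most 0.32 CPM in BT549 (log2 fold change 1.72, standard error 0.23, adjusted p = 0.0291). KRT75 went from 0.753 to 16.1 CPM and from 0.948 to 11.6 CPM in the same pairs (log2 fold change 4.00, standard error 0.32, adjusted p = 0.0222). KRT5, the basal keratin, had 964 to 1785 CPM in parental and 851 to 1545 CPM in CE MDA-MB468, and was not called (log2 fold change 0.84, standard error 0.22, adjusted p = 0.0665). KRT19, a simple epithelial keratin, fell from 0.638 to 0.388 CPM in parental BT549, from 2246 to 1489.5 in parental MDA-MB468, from 4.3 to 1.67 in BT549 CE and from 2474 to 1819 in MDA-MB468 CE. KRT19 had a log2 fold change of -0.74 (standard error 0.15, adjusted p = 0.0431). Other groups were counted in the same way, beside 2.72% called higher and 2.27% called lower over all genes tested. Calls were 1 of 13 mitochondrially encoded protein genes (MT-ND2, higher) and 0 of 81 cytosolic ribosomal protein genes (1 at an unadjusted p under 0.05). Of 245 zinc finger genes on chromosome 19, 6 were called higher and 2 lower, and the share called higher was near that of all genes.

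The difference in response between CE and parental cells gave 0 calls of 19693 genes with edgeR (0%, with 91 genes at an unadjusted p under 0.05), with DESeq2 (57 genes) and with limma-voom (147 genes). This does not show that resistant and parental cells responded alike. The growth factor gene NRG1 was among the genes with the smallest p, with ratios of 0.37 in parental BT549 and 2.05 in BT549 CE (difference 1.71, standard error 0.38, adjusted p = 1). NEAT1, a nuclear non-coding RNA, had ratios of 0.66 and 1.18 in the parental cells and of -0.19 and -0.13 in the CE cells of BT549 and MDA-MB468 (difference -1.08, standard error 0.24, adjusted p = 1).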

How the data were processed

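Polyadenylated RNA of 8 cultures, 1 per cell background and treatment, was sequenced. Per the labels and the paper's methods, the authors aligned reads to hg19 with STAR (version 2.7.11b in the submitters' processing notes), counted uniquely placed reads by gene through STAR's GeneCounts mode and deposited the counts without normalization. The annotation and strand column were not given in the sources used here, so that overlapping genes and near-identical copies (CXCL1 and CXCL2, KRT6A and KRT6B) are uncertain. The table had 58154 rows for 55679 gene identifiers. Of these, 1392 were repeated (3 of them with different counts) and were used once, and 28 symbols turned into dates were restored by identifier. Each pair of libraries differed beyond sampling noise (chi-square of 39.5 or more per degree of freedom).

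Counts were tested with edgeR 4.0.16 in R 4.3.3 (TMM scaling, filterByExpr, quasi-likelihood test, Benjamini-Hochberg adjustment over all genes tested, threshold 0.05). The fit had 4 background intercepts and 1 Acetalax term (3 residual degrees of freedom), and the line and CE differences were each added as a further term (2 residual degrees of freedom). Standard errors were derived from the fold change and the F statistic, and paired log2 ratios used a prior count of 2. Treated and control libraries were paired by background, since each pair came from the same cells. Correlations of the deviations from group means within pairs were 0.922 to 0.938. Labels do not say that pairs were cultured on separate days, so p-values measure only the spread between pairs. Alternatives were DESeq2 1.42.0, limma 3.58.1 with voom, other scalings and filters, fits without the pairing or without 1 pair, and single lines or states. The tests were first run on simulated data.

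Genes were named by a rule: the 12 largest rises and falls among called genes that averaged 1 CPM or more and had 1 sign in all pairs, the 5 most even per direction with a log2 fold change of at least 0.6, the 3 members of each of 30 lists with the smallest p, TRPM4, the 5 genes with the smallest p for each difference, and the markers. BIRC3, BCL3, CTGF, CDKN1A, TGFB3, PMEPA1, LRRC8D, ATP1B1, SLC12A4, MX1, CD274, CLCF1, ARC, RHOU, SAMD9L, IRS2, PIM1, HDAC9, PLD6, MIR17HG, FAM84A, ZNF467 and the keratins outside the markers were chosen after their values were seen. The comparison and the lists were chosen with earlier results of these data known. Of 603 list entries, 4 had no match. Promoter motifs were chosen after the values were seen, and looser patterns of the NF-κB and interferon elements had been counted first. Some genes that the rule covers are not reported here.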

Additional observations from a re-analysis of the deposited data

Results flagged for a closer look

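In 9 of the 153 named genes, 1 of the 4 pairs lay far from the other 3, by the gap to the nearest pair over the whole range (Dixon's test), which chance gives in about 1 of 20 groups, so that 9 of 153 is near the share chance gives. BT549 CE stood apart for PPAN (log2 ratio 1.55), DNAJC3 (1.47), RHOU (-2.65) and CDH1 (-1.19, with under 1 CPM in BT549). Parental BT549 stood apart for ORAI3 (-0.45), and for SERPINB2 (-0.64) and KRT5 (-1.42), which had at most 0.0709 CPM in that background. MDA-MB468 CE stood apart for SAMD9L (-2.22) and COL7A1 (0.39).

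In 9 of the 153 named genes, the response differed between the lines by edgeR's test of that difference, beside 1.78% of all genes tested. The rule for names took the 5 genes with the smallest p in this test, so the count is partly given by that choice. Differences are given as BT549 minus MDA-MB468 on the log2 scale. The response was higher in BT549 for NR4A2 (4.60), HMOX1 (2.67) and JUND (1.31). It was lower in BT549 for AKAP12 (-5.32), ANK1 (-3.01), CLMP (-2.79), TNFAIP3 (-2.10), KRT18 (-0.98) and KRT8 (-0.72). The libraries of a line also differ in their starting levels of these genes, for example 2137 to 2928 CPM of KRT8 in the MDA-MB468 controls and 1.25 to 35.6 CPM in the BT549 controls, and the part of the starting level in the difference was not tested.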

How the results depend on the processing

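The count of genes called for the common term depended on the setting. Against 536 higher and 448 lower, DESeq2 called 1301 and 1612, limma-voom 726 and 683, and edgeR without a filter on low counts 1829 and 1756. The count was 0 in both directions with testing limited to genes that averaged 5 CPM or more, with at least 1 CPM in every background (3894 genes at an unadjusted p under 0.05), with no replicate block, that is without the pairing by background (774 genes), in the parental pairs alone (2384 genes), and with limma on paired ratios with line as a random block. The CE pairs alone gave 10 and 0, the BT549 pairs alone 782 and 970, and the MDA-MB468 pairs alone 1818 and 1262. Leaving out 1 pair gave 0 to 321 genes called higher and 0 to 233 called lower, with 0 in both without the parental MDA-MB468 pair. Of the 984 called genes, 6 had the opposite direction when both difference terms were in the fit, and 0 in the other alternatives among those that could be tested. The alternatives used the same libraries, so agreement in direction was largely given in advance.

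For the line difference (351 genes), DESeq2 called 941, limma-voom 59, no filter 1632, an average of 5 CPM or more 24, 1 CPM in every background 35, both difference terms in 1 fit 6, and fits without 1 pair 100 to 1359. For the CE difference (0 genes), no filter gave 3 and fits without 1 pair gave 0 to 2. With the MDA-MB468 pairs alone, the log2 fold change changed sign for HMOX1 (-0.63), NR4A2 (-1.51), KRT18 (0.39), KRT8 (0.28) and ANK1 (1.58), which were not called for the common term. Scaling by DESeq2's size factors or by protein-coding genes moved no count by over 1.5 times. The median turned sign in at least 1 of 18 alternatives for receptor tyrosine kinase genes, ATF4 targets, heat shock chaperones, NRF2 targets, calcium handling genes, recombination genes and line markers. The settings with 1 CPM in every background, line as a random block and fits without 1 pair for the difference terms were chosen after seeing the data. The cause of these shifts was not tested. The 4 pairs come from 2 lines, with 1 library per condition and 3 residual degrees of freedom, which limits all tests.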
